A study of Mus musculus with 4 samples.

Results

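Calb1 encodes calbindin-D28k, a small cytosolic protein that binds calcium, and was 1 of the 383 genes imaged in 4 coronal sections of mouse forebrain through the striatum. It was singled out because of its measured levels in these same sections, by cell class, by region and by age, so every Calb1 value below is a description and carries no test. The gene lies on the forward strand of chromosome 4 (GRCm38, chr4:15881264-15908064, ENSMUSG00000028222.2), with 1 protein-coding transcript of 11 exons in the annotation used. The sections came from C57BL/6NTac mice, 2 sections of mice aged 2 months (Young) and 2 of mice aged 18 months (Aged), with no genetic change or treatment in either group. The RNA was counted by MERFISH, which reads single RNA molecules in place from the on-off barcodes of their probes over repeated rounds of imaging, and each molecule was assigned to a segmented cell. With 2 sections at each age, the spread between sections was the only error that could be given, and the study's methods state that its replicates were biological.

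Calbindin-D28k holds calcium that enters a cell and releases it again as the level falls, and so shapes the size and length of calcium signals. In the striatum it is a classical marker of the matrix, the larger of the compartments in which the spiny projection neurons lie, and is low in the patches (striosomes), which are known for the mu opioid receptor gene Oprm1. In the cortex it is known from pyramidal neurons of the upper layers and from some inhibitory interneurons. Glia, microglia and vascular cells are not known for it.

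Of 320663 segmented cells, 281824 had at least 10 genes and 50 µm3 and were kept. They held 572965 Calb1 transcripts. The median kept cell held 400 and 325 transcripts of all genes in Young 1 and Young 2, and 215 and 293 in Aged 1 and Aged 2, so the aged sections were shallower. For this reason levels are given per 10000 transcripts, with all genes and all cells of a class added up within each section. Over all kept cells Calb1 stood at 41.1 per 10000 in Young 1, 60.7 in Young 2, 51.8 in Aged 1 and 47.8 in Aged 2. Cells were clustered without Calb1 and named from marker lists, and a cell with at least 3 detected markers of another lineage was called mixed and left out unless stated, which left 131026 cells. The neuronal markers of this rule were the 8 spiny neuron and the 8 pan-neuronal genes used below. Leaving mixed cells out therefore limited the levels of both lists in non-neuronal cells, whereas Calb1 was not part of the rule. The tissue of Young 1 was torn in the cortex, and Rorb, a gene of cortical layer 4, was at 13.1 per 10000 in its neuron-like cells of the cortex side against 25.7 to 30.2 in the other sections. The cortex side also takes in the septal area.

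**Figure D1:**
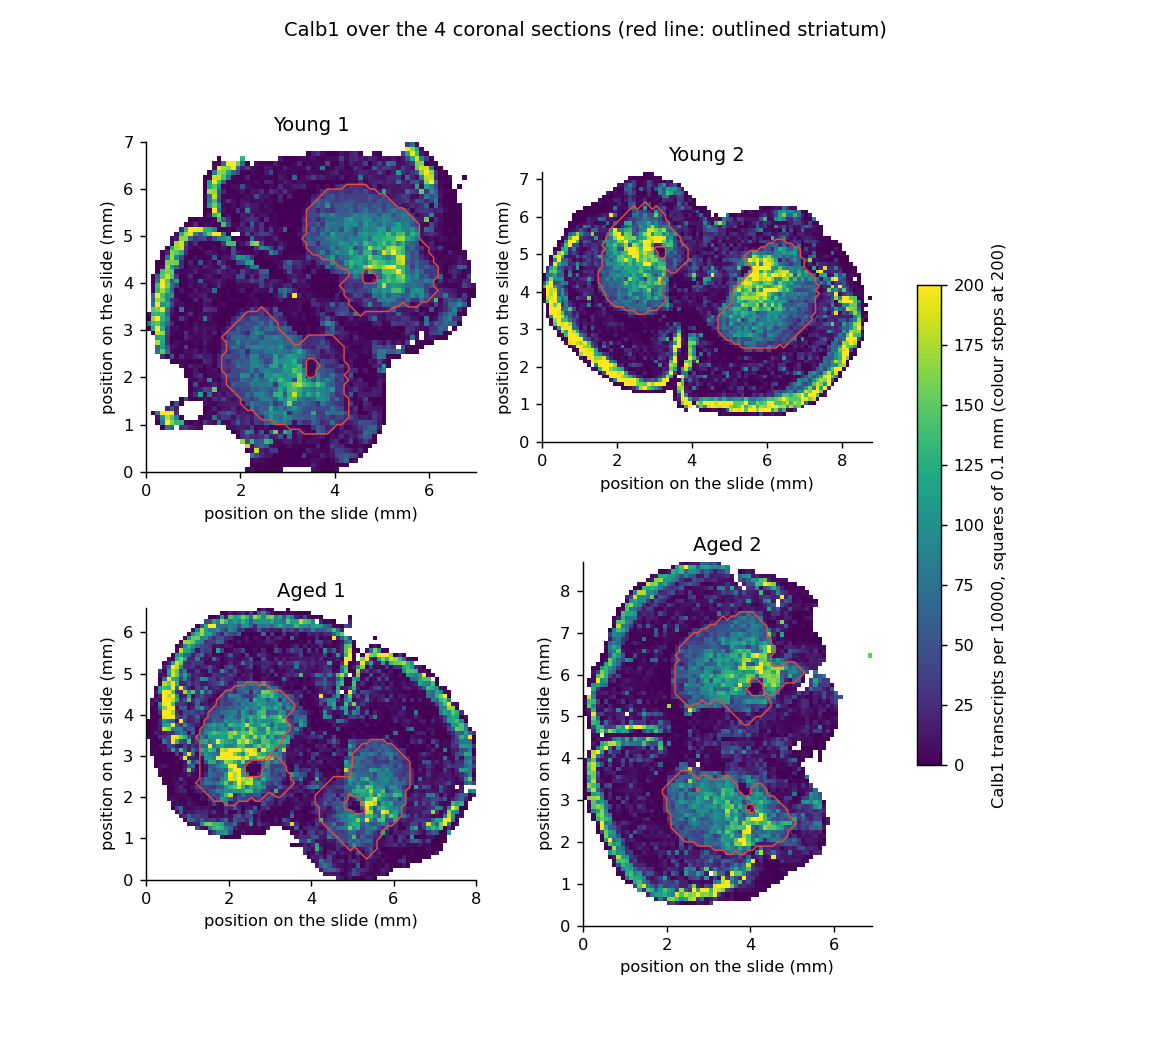
Calb1 transcripts per 10000 transcripts of all cells in squares of 0.1 mm, 1 panel per section, with distance in mm on both axes. The red outline marks the striatum, found from the density of spiny neuron-like cells and not from Calb1, and the colour stops at 200 per 10000; the bright areas are the striatum and the outer rim of the cortex.

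The spiny neuron-like cells of the striatum, named from Drd1, Drd2, Rgs9, Pde10a, Scn4b, Gpr6, Ptpn5 and Penk, had the highest Calb1 level of the 7 classes in every section. Their level was 84.1 per 10000 in Young 1, 120 in Young 2, 107 in Aged 1 and 107 in Aged 2, a mean of 105 ± 15.1 (SD, n = 4 sections). The other neuron-like cells of the striatum came second in every section, at 41.1 and 55.9 in the young and 72.3 and 51.9 in the aged sections. Over the whole sections, with mixed cells left out, the 5 non-neuronal classes together held 1.45% of the Calb1 transcripts in Young 1, 1.59% in Young 2, 3.33% in Aged 1 and 2.97% in Aged 2, and the neurons held the rest. The same classes held 12.4, 12.7, 15.2 and 16.4% when mixed cells were counted too.

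The non-neuronal classes of the striatum lay far lower. Oligodendrocyte precursor (OPC)-like cells, of which 245 were left, were at 11.9, 15.3, 20.5 and 7.52 per 10000 in Young 1, Young 2, Aged 1 and Aged 2, an uneven set of values. Oligodendrocyte-like cells, which make myelin, were at 3.67, 4.55, 8.15 and 5.19. Vascular-like cells were lowest of all in every section, at 3.11, 4.26, 5.90 and 3.65, and gave the level nearest to a background. The oligodendrocyte-like and vascular-like cells took the 6th and 7th place in every section, although their means of 5.39 ± 1.94 and 4.23 ± 1.21 did not differ beyond their spread. The 3rd to 5th places changed hands, because astrocyte-like and microglia-like cells lay among the low classes in the young sections and above the OPC-like cells in 1 or more of the aged sections. The mean over the 4 sections was 10.5 ± 7.03 in astrocyte-like and 16.0 ± 12.03 in microglia-like cells, spreads that come from the gap between the ages described further on.

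**Figure D2:**
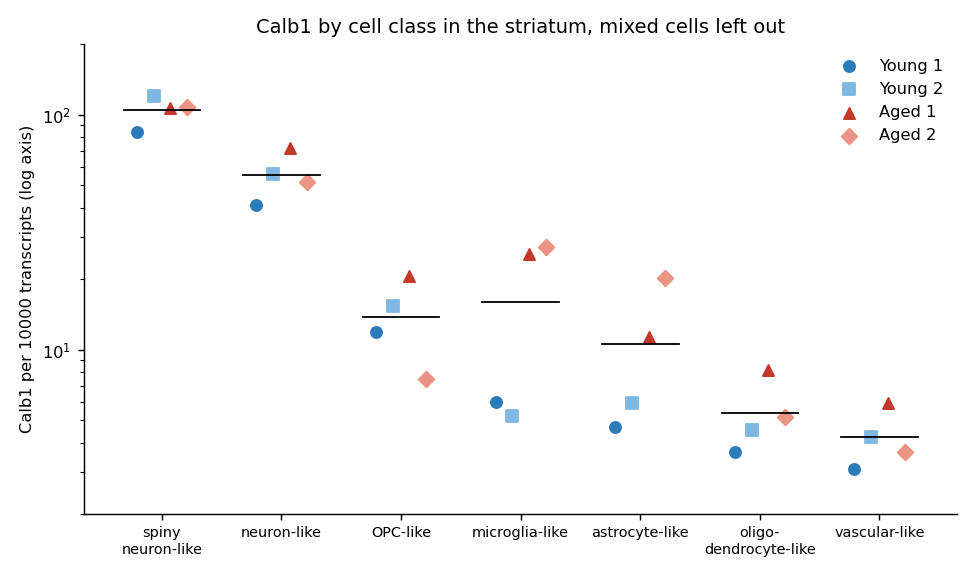
Calb1 transcripts per 10000 transcripts in the 7 cell classes of the striatum, on a log axis, with a point for each section and a bar at the mean of the 4 sections. Spiny neuron-like cells lie at 84.1 to 120, other neuron-like cells at 41.1 to 72.3, and vascular-like cells at 3.11 to 5.90; the aged points of the microglia-like cells, 25.5 and 27.3, stand apart from the young points, 5.99 and 5.21.

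Within the spiny neuron-like class Calb1 was far from uniform. No Calb1 transcript was counted in 27.3% of these cells in Young 1, 22.5% in Young 2, 30.5% in Aged 1 and 20.5% in Aged 2, whereas single cells held as many as 56, 68, 37 and 41 transcripts in Young 1, Young 2, Aged 1 and Aged 2. The median cell held 2, 3, 2 and 3 transcripts. Cells with more Drd1 than Drd2, the dopamine receptor genes of the direct and the indirect pathway neurons, had 79.9, 121, 105 and 107 per 10000. Cells with more Drd2 than Drd1 had 90.8, 120, 113 and 109, so that the same section gave nearly the same level in both kinds, apart from the gap in Young 1. Spiny neuron-like cells outside the outline of the striatum were lower, at 31.7, 39.9, 40.9 and 31.3 per 10000, a mean of 35.9 ± 5.13. Of the spiny neuron list, Scn4b, Penk, Drd2 and Ptpn5 were also lower there in every section. Scn4b, a sodium channel subunit gene, was at 85.5 to 131 outside against 162 to 255 inside. The enkephalin gene Penk was at 181 to 210 against 273 to 294, and Drd2 at 37.99 to 54.2 against 58.8 to 76.2. Rgs9 went the other way in every section, at 308, 323, 413 and 289 outside against 261, 320, 334 and 276 inside. Drd1, at 68.7 to 85.6 outside and 69.1 to 77.6 inside, Pde10a and Gpr6 did not keep the same order in all sections.

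The Calb1 level of the striatal spiny neuron-like cells followed their place. In steps of 500 µm from the dorsal edge, the means over the 4 sections were 72.4 ± 11.7, 91.4 ± 11.7, 116 ± 18.4, 124 ± 15.5, 119 ± 26.6 and, beyond 2500 µm, 75.7 ± 11.3 per 10000. Each section thus had its lowest levels at the dorsal and ventral ends and its highest in between. From the first step to the 1500 to 2000 µm step the level went from 56.5 to 104 in Young 1, from 81.1 to 142 in Young 2, from 81.3 to 124 in Aged 1 and from 70.6 to 124 in Aged 2. Across the striatum, the middle of 3 equal parts had the highest level in each section, at 105, 138, 141 and 130 per 10000. The lateral part had 75.8, 90.5, 96.5 and 93.0. The medial part had 62.9, 132, 77.5 and 92.9, so that it lay below the lateral part in Young 1 and Aged 1, well above it in Young 2 and level with it in Aged 2.

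With dorsal and ventral fields taken apart, the peak lay in the ventral middle field, at 120, 161, 155 and 157 per 10000, the highest of the 6 fields in all 4 sections. The ventral medial field varied most between sections, at 42.6, 138, 53.0 and 84.3, and did not sort by age. How far forward or back in the brain each section was cut is not given in the sources used here, so level along that axis, place and age cannot be told apart in these comparisons. The dorsal lateral field was low in every section, at 66.3, 77.2, 82.5 and 74.02. The hemispheres of a section stood at 76.4 and 91.0 in Young 1, 118 and 122 in Young 2, 121 and 87.9 in Aged 1, and 108 and 107 in Aged 2, so the sides of Aged 1 were furthest apart.

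In the cortex side, the neuron-like cells were at 35.5 and 73.1 per 10000 in the young and 60.2 and 53.5 in the aged sections, below the striatal spiny neuron-like cells of the same section by 0.95 on the log2 scale on average. Calb1 was concentrated near the surface. In the outermost 150 µm the neuron-like cells had 68.8, 226, 144 and 131 per 10000, and from 150 to 300 µm they had 76.9, 165, 116 and 101. From 300 to 450 µm the level was 27.5, 87.9, 60.9 and 47.0, and at 900 to 1100 µm it was 19.9, 29.9, 28.7 and 24.2. The outer 300 µm were higher than every deeper step in all 4 sections. Young 1, the section with the torn cortex, had the lowest Calb1 level in every step. The layer 4 gene Rorb was highest in its outermost step, at 25.6 per 10000 against 5.29, 11.1 and 13.9 in Young 2, Aged 1 and Aged 2. From 300 to 450 µm Rorb was at 15.3 in Young 1 against 47.0, 43.9 and 59.8. By this gene the steps of Young 1 did not match those of the other sections. Which layers its outermost step holds was not tested. Among the GABA neuron-like cells of the cortex side, those with at least 3 transcripts of Sst, the gene of the interneuron peptide somatostatin, had 112, 225, 264 and 212 Calb1 per 10000 (188 to 212 cells per section), and the rest had 36.9, 59.4, 72.9 and 71.1. This contrast was chosen after its values were seen.

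**Figure D3:**
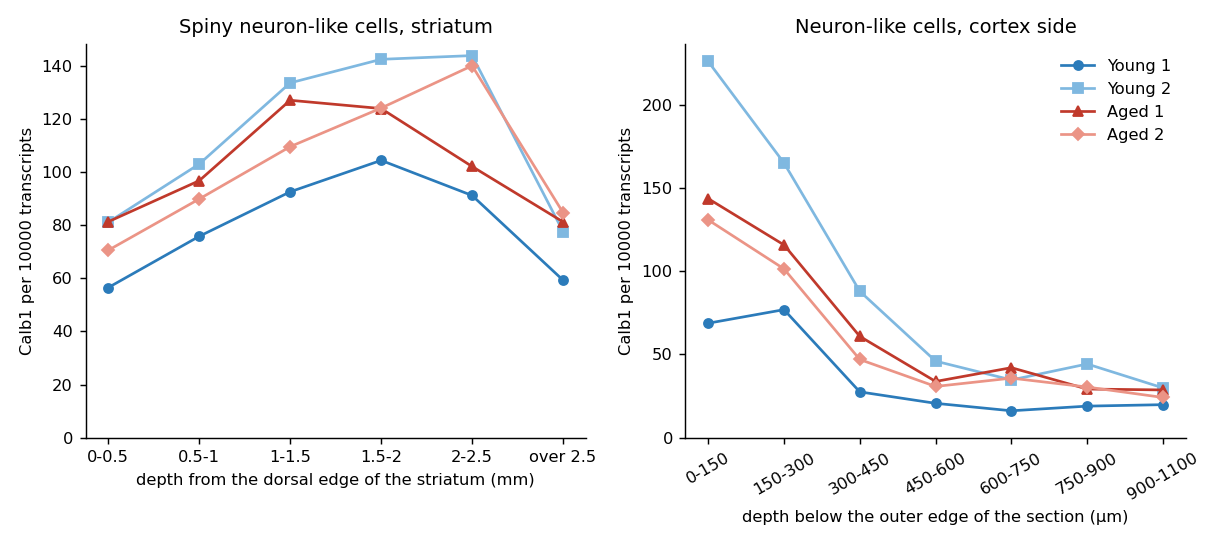
Calb1 transcripts per 10000 transcripts by depth, 1 line per section: on the left in spiny neuron-like cells in steps of 0.5 mm from the dorsal edge of the striatum, on the right in neuron-like cells by depth below the outer edge of the cortex side. The striatal lines rise from 56.5 to 81.3 at the dorsal edge to highest values of 104 to 144, reached between 1000 and 2500 µm, and are lower again beyond 2500 µm. The cortical lines drop after the outer 300 µm.

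Patches were sought from Oprm1 alone, as the tenth of striatal spiny neuron-like cells with the most Oprm1 within 75 µm. In these cells Calb1 was at 58.9, 87.2, 85.1 and 67.6 per 10000, and in the rest of the striatum at 86.4, 123, 109 and 111. The level was lower in the Oprm1-rich cells of all 4 sections, by 0.53 ± 0.15 on the log2 scale (SD, n = 4). Only 11.1, 20.03, 22.6 and 43.3% of these cells lay in the dorsal part of the striatum, so that the choice was weighted toward ventral tissue. Ranking Oprm1 against its own level within 300 µm, an alternative added after seeing the maps, placed 51.6 to 54.3% of the chosen cells in the dorsal part and gave a log2 difference of -0.47. Limiting the choice to the dorsal part gave -0.49. The relation was not graded over the whole range: with the cells in 5 equal groups from the lowest to the highest local Oprm1, the Calb1 means were 101, 112, 110, 111 and 87.1 per 10000, so the top group had the lowest mean.

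The spatial relation of non-neuronal cells to Calb1-rich neurons was followed through the nearest spiny neuron-like cell, whose centre lay at a median distance of 14.5 to 15.6 µm. The neurons of each section were put in 4 groups by their own Calb1 level. In Aged 1 only 69.5% of the striatal spiny neuron-like cells, or 71.5% with mixed cells kept, held any Calb1. Its lowest group was therefore made up of neurons with none counted, and 694 non-neuronal cells lay beside it against 510 beside the second-lowest. Non-neuronal cells next to neurons of the lowest group had 3.62 and 3.57 Calb1 per 10000 in the young and 9.99 and 11.5 in the aged sections. Those next to neurons of the highest group had 5.77 and 6.04 in the young and 13.7 and 17.0 in the aged sections, higher in each section and by 0.61 on the log2 scale on average. The step was not even, since cells beside the second-lowest group had 3.06, 5.51, 6.95 and 7.98, which in 3 of the 4 sections was below the lowest group. The summed level of the 8 spiny neuron genes in the same cells was also higher, at 55.4, 65.2, 80.9 and 69.0 beside neurons of the highest group against 50.3, 52.5, 71.0 and 60.9 beside those of the lowest. With mixed cells kept, the lowest and highest groups stood further apart, at 19.4, 29.2, 30.3 and 35.0 against 50.6, 71.2, 61.6 and 63.5. Transcripts of the neighbouring neuron that were assigned to the wrong cell and transcripts made in the cell cannot be told apart by a count.

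By distance, the lowest level was found in the farthest step, with no even decline before it in Young 2, Aged 1 or Aged 2. Non-neuronal cells whose centre lay under 10 µm from that of a spiny neuron-like cell had 6.48, 6.46, 13.3 and 11.99 Calb1 per 10000, and those 30 µm or more away had 1.81, 3.47, 5.28 and 7.70. The spiny neuron genes of these cells went from 74.6, 73.4, 97.6 and 78.4 under 10 µm to 22.1, 40.2, 47.2 and 38.5 at 30 µm or more. At 20 to 30 µm, however, Calb1 was still at 3.41 and 5.35 in the young and 13.6 and 11.7 in the aged sections, the last 2 close to their level under 10 µm. In the astrocyte-like cells of the aged sections it was higher at 20 to 30 µm, 22.6 and 25.3, than under 10 µm, 8.30 and 17.9. Here and in the groups by nearest neuron, the astrocyte-like cells included cells of a Calb1-rich finer cluster described further on, the Top2a-led cluster. Leaving these out took the striatal astrocyte-like cells of Aged 2 from 605 cells at 20.1 per 10000 to 573 cells at 10.05. The spatial comparisons were not repeated without them. The cells in the farthest step were few, 114 to 208 per section.

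**Figure D4:**
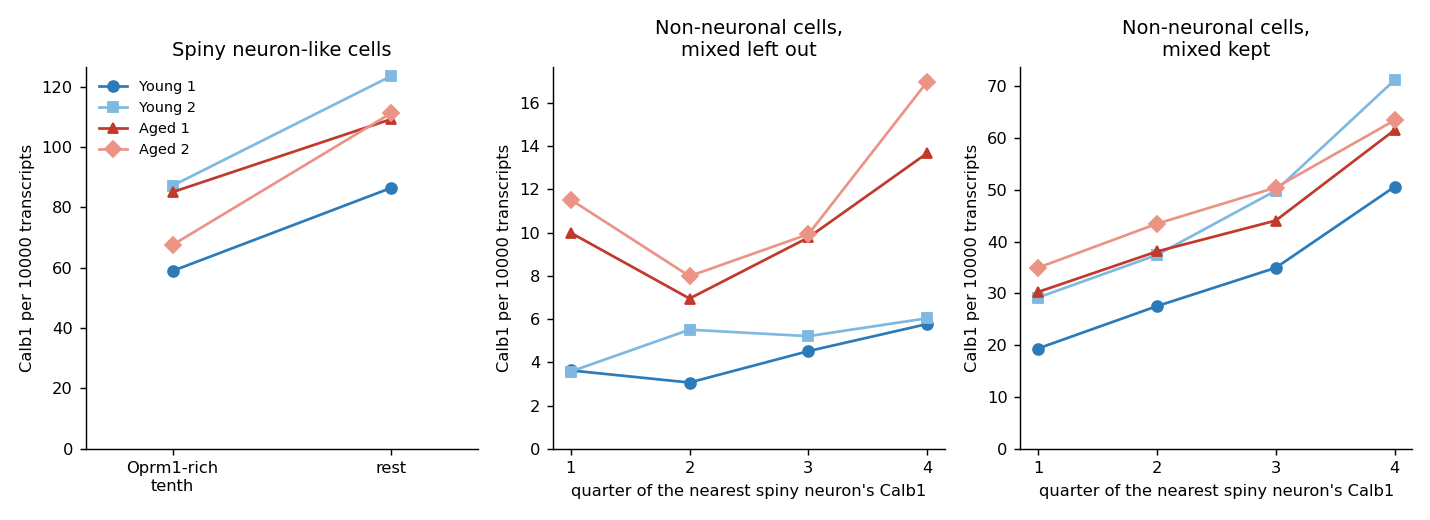
Calb1 transcripts per 10000 transcripts, 1 line per section. The left panel sets spiny neuron-like cells of Oprm1-rich patches (58.9 to 87.2) against the rest of the striatum (86.4 to 123); the middle and right panels show non-neuronal cells by the Calb1 group (1 lowest, 4 highest) of the nearest spiny neuron-like cell, with mixed cells left out (3.57 to 11.5 in the lowest group, 5.77 to 17.0 in the highest) and with mixed cells kept (19.4 to 35.0 and 50.6 to 71.2).

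Between 2 and 18 months the spiny neuron-like cells of the striatum did not separate by age on the per-10000 scale, with 84.1 and 120 in the young and 107 and 107 in the aged sections, a log2 ratio of 0.069. Per unit of cell volume the order was 6.39 and 7.29 transcripts per 1000 µm3 in the young and 4.59 and 6.23 in the aged sections, so that the log2 ratio was -0.34. That scale carries the lower total depth of the aged sections with it. The neuron-like cells of the striatum had a log2 ratio of 0.36 with overlapping ages, and -0.11 per unit of volume. The spiny neuron-like cells outside the outline had a ratio of 0.012.

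In the oligodendrocyte-like, astrocyte-like and microglia-like cells of the striatum both aged sections lay above both young sections, but not in the OPC-like cells, whose log2 ratio was 0.047 and whose lowest level was that of Aged 2. For oligodendrocyte-like cells the log2 ratio was 0.70, and 109 of the 383 genes (28.5%) were likewise higher in both aged sections of these cells. Their spiny neuron genes were at 48.1 and 41.2 per 10000 in the young and 70.2 and 62.1 in the aged sections. Calb1 per transcript of those genes was 0.0762 and 0.110 in the young and 0.116 and 0.0835 in the aged sections, which overlap, and the log2 ratio on that scale, added after seeing the data, was 0.10. For vascular-like cells of the striatum the ages overlapped, with a log2 ratio of 0.37. Over the whole section they did not, with 2.13 and 2.71 per 10000 in the young and 4.79 and 3.43 in the aged sections, a log2 ratio of 0.77, as was so for 83 of the 383 genes (21.7%) in these cells. Calb1 then had the 3rd highest ratio of aged to young of all 383, at 0.58 on the scale of log2(level + 1). The ages also lay apart on the cortex side, at a log2 ratio of 0.69, and outside the named regions, with 0.919 and 1.80 against 3.73 and 3.88, a ratio of 1.49. In the striatum Calb1 per spiny neuron transcript was 0.0661, 0.0762, 0.0947 and 0.0773 in Young 1, Young 2, Aged 1 and Aged 2. The spiny neuron-like cells of the striatum had 0.0585, 0.0797, 0.0826 and 0.0803, about the same proportion as its vascular-like cells. Outside the named regions the proportions differed. Vascular-like cells there had 0.0387, 0.0892, 0.165 and 0.157, and spiny neuron-like cells 0.0252, 0.0346, 0.0335 and 0.0308. Other neuron-like cells there had 0.161, 0.240, 0.276 and 0.213. The source of the Calb1 counts in vascular-like cells was not tested.

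Microglia-like cells, the immune cells of the brain, had the widest gap between ages. Their Calb1 level in the striatum was 5.99 and 5.21 per 10000 in the young against 25.5 and 27.3 in the aged sections. The means were 5.60 and 26.4, a log2 ratio of 2.24. In 101 of the 383 genes (26.4%) both aged sections were above both young sections in these cells, so the order of the ages was no rarity among the genes of these cells. Over the whole section the level was 4.61, 6.05, 27.8 and 24.5, and Calb1 then had the highest ratio of aged to young of all 383 genes, at 2.10 on the scale of log2(level + 1), ahead of Gfap, an intermediate filament gene of astrocytes, at 1.43. In the striatum alone it was 4th, behind the neuronal noncoding RNAs Snhg11 at 2.74 and Meg3 at 2.62 and the antigen presentation gene Cd74 at 2.19. Snhg11 was at 0.260, 0.326, 14.1 and 1.17 per 10000 and Meg3 at 2.08, 1.30, 26.0 and 5.06 in Young 1, Young 2, Aged 1 and Aged 2, so the gap of both lay mostly in Aged 1, whereas Calb1 was high in both aged sections. The gap was present in the 3 areas with a value, the white matter having none. On the cortex side the level was 4.75 and 8.58 in the young against 29.9 and 26.0 in the aged sections, and outside both named regions it was 2.73 and 3.03 against 26.5 and 24.2.

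The summed spiny neuron genes of the striatal microglia-like cells had a smaller gap than Calb1. They were at 60.7 and 74.9 per 10000 in the young and 77.9 and 78.3 in the aged sections, and Calb1 per transcript of them was 0.0987 and 0.0696 in the young and 0.327 and 0.348 in the aged sections. The 8 pan-neuronal genes were at 61.5 and 78.5 in the young and 123 and 99.7 in the aged sections, a smaller gap in the same direction. Both lists were held down here by the rule for mixed cells, which counted their genes and not Calb1. The smaller gap of the lists is therefore in part set by that rule. Calb1 per spiny neuron transcript was 0.0620 and 0.0821 in the young and 0.0962 and 0.0957 in the aged sections when mixed cells were kept. In microglia-like cells beside neurons of the lowest Calb1 group, Calb1 was at 5.79 and 1.42 per 10000 in the young and 26.5 and 24.5 in the aged sections, and beside those of the highest group at 8.66 and 8.51 against 33.0 and 44.2. Both aged sections were above both young sections in the 2 middle groups as well, with the smallest aged values, 9.38 and 13.9, in the second-lowest.

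The microglial transcripts were few per cell. Over the whole section, 40 of 834, 53 of 1007, 148 of 1042 and 155 of 1032 microglia-like cells held any Calb1, which is 4.80 and 5.26% in the young and 14.2 and 15.02% in the aged sections. The highest counts in a cell were 2, 4, 5 and 7, and at least 3 transcripts were counted in 14 cells of each aged section against 2 cells of Young 2. After each cell was thinned to 40 transcripts, with 125, 230, 345 and 320 shallower cells left out, the share with Calb1 was 2.40 and 2.32% against 10.04 and 9.97%. The microglia list was at 3208, 2997, 3009 and 3050 per 10000 in the cells with Calb1 against 3388, 3312, 2960 and 3036 in those without. The cells with Calb1 also held more transcripts of the spiny neuron genes in every section, at 62.4, 47.3, 45.2 and 58.6 per 10000 against 36.0, 32.9, 39.5 and 37.2, and more of the pan-neuronal genes in 3 of the 4 sections, at 92.8, 155, 123 and 136 against 73.9, 87.2, 138 and 102. Their median total was higher too, at 124.5, 119, 78 and 87 transcripts against 97, 77, 56 and 63.

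The gap in microglia-like cells rests on leaving out mixed cells. These were 69.7 and 64.0% of the striatal microglia-like cells in the young and 59.4 and 59.8% in the aged sections. With mixed cells kept, the striatal level was 48.9 and 62.5 in the young and 56.7 and 62.1 in the aged sections, with overlapping ages and a log2 ratio of 0.094. Cells were also thinned to 60 transcripts before mixed cells were sought, so that every cell had the same depth when the markers were counted. Cells with fewer transcripts were left out. This gave 579, 482, 329 and 354 cells against 310, 306, 273 and 277 in the main choice, so the cells were not the same. Their level was 26.5 and 22.1 in the young against 35.0 and 44.7 in the aged sections, a log2 ratio of 0.71. A stricter rule for mixed cells gave 2.57. The part of depth and of neighbouring cells in the gap was otherwise not tested.

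Astrocyte-like cells of the striatum were at 4.70 and 5.90 per 10000 in the young and 11.3 and 20.1 in the aged sections, a log2 ratio of 1.57, and 88 of the 383 genes (23%) likewise had both aged above both young sections. On the cortex side there was no such gap, with 4.22 and 5.69 in the young and 5.07 and 4.32 in the aged sections, a log2 ratio of -0.077, and in the white matter the ages overlapped. Outside the named regions the ages lay apart, with 13.4 and 22.4 against 35.6 and 32.4, a log2 ratio of 0.93. The astrocyte-like cells of the finer clustering described next had 2.39 and 2.52 against 6.01 and 4.05 there, a ratio of 1.03. A share of the striatal gap came from cells that a finer clustering set apart, led by Top2a, Rassf9, Nnat, Sox4, Thbs4 and Sox11. All 4 neuroblast markers (Dcx, Sox11, Sox4 and Dlx6os1) were enriched in this cluster, but the astrocyte gene Sox9 was also among its 10 leading genes. Of its cells left by the rule for mixed cells, most held no Dcx. It is therefore left without a cell type name and called the Top2a-led cluster. Without the cells of this cluster, the astrocyte-like cells were at 4.32 and 5.28 against 8.78 and 10.05, a log2 ratio of 0.97. Their Calb1 per spiny neuron transcript was then 0.0728 and 0.0799 in the young and 0.116 and 0.143 in the aged sections, and with mixed cells kept the log2 ratio of all astrocyte-like cells was 0.62.

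The Top2a-led cluster had more Calb1 than any of the non-neuronal classes. Over the whole section it held 951, 1052, 443 and 509 cells before mixed cells were left out, and 419, 488, 265 and 307 after. The neuronal lists counted as another lineage in this cluster, and the values below, its make-up included, are those of the cells left. Their Calb1 level was 51.1 and 80.1 per 10000 in the young and 164 and 157 in the aged sections, a log2 ratio of 1.29. In 101 of the 383 genes (26.4%) both aged sections were above both young sections in these cells. After thinning to 40 transcripts, with 82, 82, 43 and 62 shallower cells left out, 13.9 and 19.7% of them held Calb1 in the young and 39.6 and 42.4% in the aged sections. The make-up of the cluster differed between ages as well: Dcx, a gene of migrating young neurons, was at 66.2 and 60.8 against 27.2 and 36.2, Sox11 at 123 and 146 against 45.2 and 52.5, and the dividing-cell gene Top2a at 76.9 and 73.3 against 27.7 and 22.4. Gja1, which encodes the astrocyte gap junction protein connexin 43, was at 318 and 346 against 455 and 430. Among the 186, 192, 55 and 79 cells with a Dcx transcript, Calb1 was at 18.3 and 45.9 in the young and 82.6 and 73.3 in the aged sections. Among cells without one it was at 67.9 and 95.1 against 180 and 178. The aged sections were higher in both sets, and in each section the cells without Dcx were the higher. When the cluster was split by Top2a, the 101, 126, 32 and 29 cells with a Top2a transcript had 17.9 and 43.7 against 64.9 and 36.2. The ages thus overlapped in these cells. Cells without Top2a, the larger set in every section, had 63.3 and 93.9 in the young against 177 and 167 in the aged sections. The spiny neuron genes in the cluster, at 38.7 and 32.5 against 39.4 and 37.0, overlapped between ages.

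**Figure D5:**
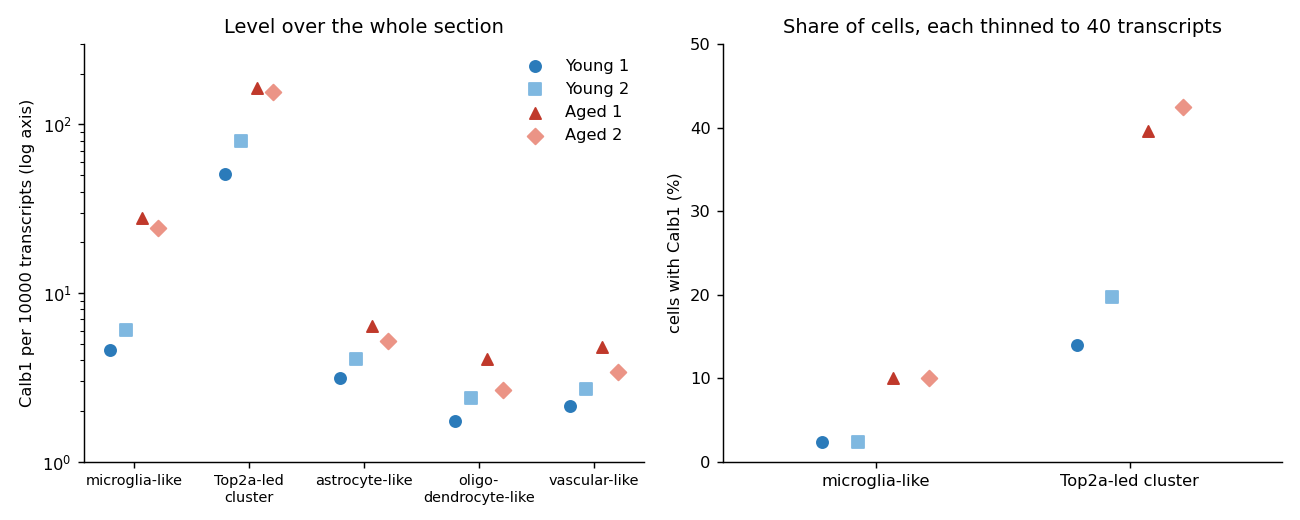
Calb1 by age over the whole section, with a point for each section. The left panel gives transcripts per 10000 transcripts on a log axis, with the microglia-like cells at 4.61 and 6.05 in the young and 27.8 and 24.5 in the aged sections and the Top2a-led cluster at 51.1 and 80.1 against 164 and 157; the right panel gives the percentage of cells with Calb1 after thinning each cell to 40 transcripts, 2.40 and 2.32 against 10.04 and 9.97 in microglia-like cells.

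Other genes of calcium handling were described from a list of 10: the plasma membrane calcium pumps Atp2b1 and Atp2b2, Saraf, a regulator of store-operated calcium entry, the calcium channel subunit Cacna2d3, the glutamate receptors Grin2b and Grm5, the calcium-binding proteins S100b, S100a6 and Tesc, and Pcp4l1, a relative of the calmodulin-binding Pcp4. Counts summed over the striatal cells of a class were compared between ages with edgeR's quasi-likelihood test. In spiny neuron-like cells 0 of the 383 genes tested (0%) passed an adjusted p of 0.05, and 30 had an unadjusted p below it. None of the 10 calcium genes passed, and none of the 8 spiny neuron genes did. The median log2 change of the calcium list was -0.02 beside 0.01 over all genes. In vascular-like cells 0 of 317 genes (0%) passed, 26 at an unadjusted p, and of the 9 calcium genes tested none passed.

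In astrocyte-like cells 3 of 268 genes (1.12%) passed, Calb1 itself among them, from which nothing is read because it was chosen on this contrast; none of the 10 calcium genes did. Pcp4l1 was at 19.2 and 20.9 per 10000 in the young and 29.7 and 32.5 in the aged astrocyte-like cells, with an adjusted p of 0.184 by edgeR. In oligodendrocyte-like cells 19 of 259 genes (7.34%) passed, 8 higher and 11 lower in the aged sections. Of the 9 calcium genes tested there, Cacna2d3 alone passed: it was at 2.01 and 4.69 in the young and 10.4 and 8.40 in the aged sections, a log2 change of 1.30 ± 0.42 (SE, edgeR adjusted p = 0.0397). That call was lost with DESeq2 (adjusted p = 0.229), with mixed cells kept (0.797 by edgeR), with the replicate number as a block (0.190), without Young 1 (0.592) and without Aged 1 (0.269).

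The genes whose level in striatal spiny neuron-like cells followed that of Calb1 most closely over squares of 250 µm were Arpp21, a phosphoprotein of dopamine signalling in spiny neurons, with a mean Pearson r of 0.74 over the 4 sections, Id4, an inhibitor of helix-loop-helix transcription factors, with 0.73, Elmod1 with 0.69, Ahnak with 0.55 and Drd2 with 0.52. The genes that ran most against it were Dlx6os1 at -0.61, Peg3 at -0.57, Ptprz1 at -0.49, Jun at -0.45 and Rims2 at -0.43. Squares numbered 149 to 169 per section, and neighbouring squares share tissue and library. Of the genes that followed Calb1, Id4 and Arpp21 were higher in the ventral middle field than over the whole striatum in every section. Id4 was at 143, 129, 114 and 130 per 10000 against 94.7, 90.1, 81.1 and 90.4. Arpp21 was at 382, 380, 440 and 387 against 347, 366, 396 and 369. Drd2 went the other way in every section, at 64.9, 64.8, 50.1 and 62.8 in the ventral middle field against 73.5, 76.1, 58.8 and 76.2. Elmod1 and Ahnak did not keep the same order in all sections. The dorsal fields and the ventral lateral field were not compared for these genes. Over the 7 classes of the striatum the closest were Cplx2 and Elmod1, both at 0.99, Drd2 at 0.98, and Nsg2 and Ndrg4, both at 0.97, an ordering set mainly by the gap between neuronal and other classes.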

How the data were processed

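The data were 4 tables of transcript counts per segmented cell, deposited by the authors together with cell positions and volumes. Per the study's methods, 10 µm sections were imaged by MERFISH, barcodes were decoded with MERLIN and cells were segmented before deposit; the deposited counts are not normalized. The other deposited signal, each cell's volume in µm3, came from the authors' segmentation. Calb1 and the gene lists were chosen with earlier results of these data known.

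Cells with at least 10 genes and 50 µm3 were kept, clustered without Calb1 and the calcium list (15 principal components, 20 neighbours, Louvain resolution 0.08; 7 clusters, and 13 at 0.3; igraph 0.11.9, scikit-learn 1.9.0) and named from markers. Cells with 3 or more detected markers of another lineage were left out; no doublet caller was run. The striatum, cortex side and white matter were areas where spiny neuron-like, other neuron-like or oligodendrocyte-like cells made up at least 40% of cells within 150 µm. Levels are transcripts per 10000, with SD over sections; ratios between ages are log2 of group means. Sections shared no cell barcodes.

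Summed counts were tested with edgeR 4.0.16 (quasi-likelihood, TMM, filterByExpr, Benjamini-Hochberg), with DESeq2 1.42.0 and limma-voom (limma 3.58.1) as alternatives; the procedure was tested on simulated data. Other genes named are the calcium and spiny neuron lists and the 5 most and 5 least correlated with Calb1 over squares of 250 µm with at least 20 spiny neuron-like cells (log2 of level + 1), and the 5 most correlated over classes. Median depth was 400, 325, 215 and 293 transcripts per kept cell in Young 1, Young 2, Aged 1 and Aged 2. Alternatives covered the volume scale, mixed cells, clustering, outlines, thinning, the replicate block and leaving out each section.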

Additional observations from a re-analysis of the deposited data

How the results depend on the processing

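Over 13 described Calb1 results and 130 alternatives, 102 values moved by less than the spread between sections, 27 moved by more and 1 reversed. A change of sign counted as reversed only where the main value was larger than that spread. Smaller values changed sign too, among them the age ratios of spiny neuron-like and vascular-like cells per unit of volume. The reversed value was the log2 age ratio of neuron-like cells, 0.36, which was -0.11 per unit of volume; it was 0.74 with a stricter rule for mixed cells and 0.79 with finer clusters. Per unit of volume, the age ratio was 1.72 in microglia-like, 0.061 in oligodendrocyte-like, -0.34 in spiny neuron-like and -0.050 in vascular-like cells, and the log2 level of spiny neuron-like over the non-neuronal classes, 3.88, was 4.58. With mixed cells kept, that level ratio was 1.21, the age ratio was 0.62 in astrocyte-like, 0.094 in microglia-like and 0.26 in oligodendrocyte-like cells, and the difference between the lowest and highest groups by nearest neuron was 1.14. The age ratio of astrocyte-like cells was 1.04 with finer clusters, 0.85 over the whole section and 0.97 outside the Top2a-led cluster. Thinning to 60 transcripts before the mixed rule, with shallower cells left out, gave 0.91 in astrocyte-like, 0.71 in microglia-like and 0.13 in oligodendrocyte-like cells. The stricter mixed rule gave 2.57 in microglia-like cells. Over the spiny neuron genes of the same cells it was 2.01 in microglia-like, 0.10 in oligodendrocyte-like and -0.75 in OPC-like cells. The patch difference was -0.33 for the highest 20% by Oprm1. The cause of these shifts was not tested.

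Leaving out each section in turn gave age ratios of 1.10 to 1.93 in astrocyte-like, 2.14 to 2.34 in microglia-like, 0.34 to 0.99 in oligodendrocyte-like, 0.10 to 0.60 in neuron-like, -0.17 to 0.35 in spiny neuron-like, -0.02 to 0.68 in vascular-like and -0.85 to 0.60 in OPC-like cells. It gave -0.59 to -0.47 for patches, 0.56 to 0.66 by nearest neuron, 3.65 to 4.09 by class, -1.03 to -0.85 for cortex side over striatum, 0.62 to 0.84 from the dorsal edge to 2000 to 2500 µm and -0.20 to 0.09 for medial over lateral.

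The counts of genes called were 0 in spiny neuron-like, 3 in astrocyte-like, 19 in oligodendrocyte-like and 0 in vascular-like cells. With mixed cells kept they were 0 in astrocyte-like and 1 in oligodendrocyte-like cells, over the whole section 21 and 44, and with DESeq2 1 in oligodendrocyte-like cells. Leaving out each section gave 0 to 2, 3 to 9, 5 to 19 and 0 to 2; a lone section of an age is then assumed to vary like the other age. Nothing in the labels pairs the sections by number. With the replicate number as a block the oligodendrocyte-like count was 1, and the other 3 counts were 0, 3 and 0. Deviations of same-numbered sections correlated at -0.26, -0.20, -0.09 and -0.13, and a block with the numbers crossed, added after seeing the data, gave 12, 9, 27 and 1 calls.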

Other observations

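Among the GABA neuron-like cells of the striatum, those with at least 3 Sst transcripts had 57.8 and 58.6 Calb1 per 10000 in the young and 51.0 and 50.4 in the aged sections, against 36.9 and 56.7, and 76.7 and 49.4, in the rest. The order that held on the cortex side in every section therefore did not hold in the striatum, where Sst-positive cells were the lower in Aged 1. Areas of white matter, mixed cells left out, held 0.152 and 0.207% of the Calb1 transcripts of the young sections and 0.788 and 0.660% of those of the aged sections, but more white matter was imaged in the latter, 2.90 and 2.80 mm2 against 1.498 and 1.82 mm2. The oligodendrocyte-like cells there were at 1.18 and 1.33 per 10000 in the young and 3.22 and 1.56 in the aged sections, below those of the striatum in every section.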
